A study of Mus musculus with 8 samples.

Results

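Poly(C)-binding proteins and hnRNP K form a small family of RNA-binding proteins, encoded in the mouse by Pcbp1, Pcbp2, Pcbp3, Pcbp4 and Hnrnpk. These 5 genes were taken by name from the 33924 genes of the authors' deposited result tables, and all 5 could be traced to their values in each of the 8 libraries. Pcbp1 was also the target of the short hairpin RNA used in the study, so its own level in that experiment is a check of the labels.

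The cells were Th1 cells of strain C57BL/6, T helper cells known for making interferon gamma. They were grown in culture from purified T cells stimulated with antibodies to CD3 and CD28. Every group received IL-12 (2 ng/ml) and an IL-4 blocking antibody. In the knockdown experiment, 2 libraries came from cells transduced with a hairpin against Pcbp1 and 2 from cells transduced with a scrambled hairpin. The RNA sequenced there is described as total RNA without ribosomal RNA. In the chelation experiment, 2 libraries came from cells given CPX (an iron chelator) and 2 from cells given its solvent DMSO, and polyA RNA was sequenced. The sources used here name neither the vector nor the share of cells transduced, and give no CPX dose or duration. Whether replicates came from separate cultures or animals is not stated in the labels, so p-values measure only the spread between these samples, which may be technical. Levels are given as RPM, a gene's share of a library's total times 1e+06, and are set beside each other within an experiment only.

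The proteins of this family hold KH domains, folds that grip single-stranded RNA or DNA, and favour runs of cytosine. Bound to a transcript they can stabilise it, alter its splicing, or block or recruit ribosomes, and hnRNP K also binds CT-rich DNA and works in transcription. PCBP1 and PCBP2 have another role as iron chaperones, which carry ferrous iron to ferritin and to iron-dependent enzymes. In mouse effector T cells PCBP1 has been described as a restraint on conversion to regulatory T cells.

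All 5 coding sequences are shown over the same stretch of 60 bases in the first KH domain. It was picked as the stretch without gaps in which the 5 aligned sequences are most like Pcbp1. Bases are counted from the A of the start codon in the longest coding transcript of GENCODE M21 (build GRCm38), the sense strand is given 5′ to 3′, and capitals mark bases that differ from Pcbp1.
Pcbp1, coding bases 39 to 98: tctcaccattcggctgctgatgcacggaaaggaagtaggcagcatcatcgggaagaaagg
Pcbp2, coding bases 39 to 98: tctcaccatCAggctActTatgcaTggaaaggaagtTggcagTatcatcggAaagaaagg
Pcbp3, coding bases 135 to 194: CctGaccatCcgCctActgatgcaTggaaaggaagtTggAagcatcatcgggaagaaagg
Pcbp4, coding bases 51 to 110: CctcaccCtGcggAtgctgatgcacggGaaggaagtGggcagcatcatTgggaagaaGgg
Hnrnpk, coding bases 126 to 185: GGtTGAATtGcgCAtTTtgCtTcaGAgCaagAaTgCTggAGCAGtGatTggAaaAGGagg
In this stretch Pcbp2, Pcbp3 and Pcbp4 each differed from Pcbp1 at 8 of the 60 bases, and Hnrnpk differed at 32. Because the stretch was picked for likeness, these counts do not measure how related the whole genes are. Over the aligned coding sequences, identity with Pcbp1 was 81.6% for Pcbp2, 72.8% for Pcbp3, 67.3% for Pcbp4 and 54.3% for Hnrnpk.

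How far sequencing reads can be told apart between the genes was read from exact matches. The longest run shared by the coding sequences of Pcbp1 and Pcbp2, the closest pair, is shown in capitals with 10 bases on each side.
Pcbp1, coding bases 774 to 826: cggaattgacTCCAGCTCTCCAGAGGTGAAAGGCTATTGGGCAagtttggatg
Pcbp2, coding bases 786 to 838: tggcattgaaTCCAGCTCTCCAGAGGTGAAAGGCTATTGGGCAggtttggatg
The run is 33 bases long. Of the 50-base words in the longest coding transcripts, 0 were shared between any of the 5 genes. Words were matched on either strand, so antisense matches are counted too. Words shared with genes outside the family were few for Pcbp1 (2 of 1781), Pcbp3 (0 of 2495) and Pcbp4 (2 of 1986). They made up 53% of the 3173 words of Pcbp2, mostly words also annotated in Map3k12, whose gene overlaps its end, and 37.8% of the 2921 words of Hnrnpk, mostly from the processed pseudogene Gm7964. No read length is stated in the sources used here, so Pcbp2 and Hnrnpk values carry this uncertainty in how shared reads were assigned.

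The genes differ in architecture. On build GRCm38 of the GENCODE M21 annotation, Pcbp1 lies at chr6:86524492-86526321 on the minus strand as 1 exon without introns. Pcbp2 lies at chr15:102470539-102500061 on the plus strand with up to 15 exons in a transcript, Pcbp3 at chr10:76761857-76961887 on the minus strand with up to 19, and Pcbp4 at chr9:106453291-106464012 on the plus strand with up to 13. Hnrnpk lies at chr13:58391142-58403343 on the minus strand with up to 18. The deposited values were made on build mm9, whose coordinates are not used here.

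Depth was 14174293 to 15518303 gene reads per library in the knockdown experiment. In the chelation experiment it was 19193784 to 19662145 units of a rescaled table, about 1.96 reads each as a mean over the libraries. That mean was estimated from the authors' mean signals and rests on an assumption about their scaling between libraries. These totals, and so RPM, include mt-Rnr2, a mitochondrial ribosomal RNA. It made up 17.6% of both scrambled libraries and 19.9% and 19.3% of the Pcbp1 hairpin libraries, but at most 0.204% of a library in the chelation experiment. Replicates correlated across genes at 0.992 for Pcbp1 hairpin and 0.993 for scrambled hairpin, and at 0.954 for CPX and 0.985 for DMSO (Pearson, log2 scale, genes not being independent replicates). More than 2-fold apart were 1773 genes between the CPX replicates and 524 between the DMSO replicates, so the CPX libraries are the least alike. All 7 T cell markers and all 4 Th1 markers were detected in every group. The summed Th1 markers, mostly Ifng, stood at 25121 and 19252 RPM with the Pcbp1 hairpin, against 50719 and 41237 RPM with the scrambled hairpin. They stood at 1245 and 5132 RPM with CPX, against 14205 and 24240 RPM with DMSO, so the sum was lower with both perturbations. Not every marker followed the sum. With the Pcbp1 hairpin, Tbx21 was higher (58.1 and 46.9 RPM, against 41.3 and 36.4 RPM with the scrambled hairpin). Il12rb2 was also higher there (67.8 and 59, against 58.8 and 48.7 RPM), while Stat4 was lower. With CPX, Tbx21 had 84.4 and 95.2 RPM, inside the DMSO values of 56.8 and 137 RPM, while Il12rb2 and Stat4 were lower. The part of these markers in the results that follow was not tested. Cd8a, a marker of CD8 T cells, stood at 67.1 and 6.92 RPM with the Pcbp1 hairpin and at 63.8 and 6.49 RPM with the scrambled hairpin, so it moved with the replicate number and not with the hairpin, as did Cd8b1 (24.8 and 4.69 RPM with the Pcbp1 hairpin, 26.7 and 5.45 RPM with the scrambled hairpin). The labels name CD4 T cells.

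**Figure D1:**
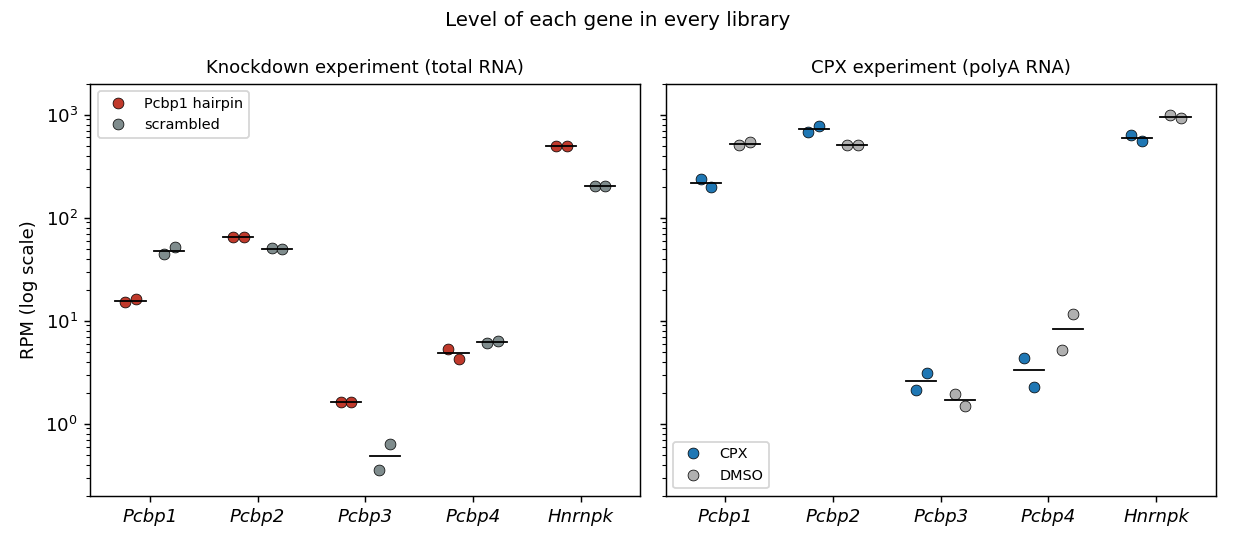
RPM (vertical log axis) of the 5 genes in each library, with the knockdown experiment on the left and the chelation experiment on the right. Points are libraries and lines are means of 2; the groups of each gene are apart in both experiments, and Pcbp3 and Pcbp4 lie far below the other genes.

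Pcbp1, the target of the hairpin, had 15.1 and 16.1 RPM in the Pcbp1 hairpin libraries, against 44.0 and 51.7 RPM in the scrambled libraries. Behind these stand 234 and 230 reads with the Pcbp1 hairpin and 624 and 741 reads with the scrambled hairpin. Both hairpin libraries lie below both scrambled ones, with a level 3.31-fold lower (log2 -1.73, SE 0.12, adjusted p = 3.18e-05 in edgeR's quasi-likelihood test), so the libraries match their labels. In bulk samples fewer cells of a type and less RNA per cell cannot be told apart.

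CPX was also accompanied by less Pcbp1 mRNA. The gene had 238 and 199 RPM with CPX, against 506 and 538 RPM with DMSO. The groups did not overlap, and Pcbp1 was 2.40-fold lower with CPX (log2 fold change -1.26, SE 0.20, limma, adjusted p = 0.00613). In the authors' deposited table the values are -1.67 for the hairpin and -1.21 for CPX, with adjusted p of 1.12e-21 and 0.00113. The hairpin effect minus the CPX effect was -0.32 (SE 0.21, limma over all 8 libraries, adjusted p = 0.229). That fit estimates the hairpin effect anew, without TMM scaling (-1.59 for Pcbp1). Differences are therefore not edgeR values minus CPX values. That difference passed with TMM scaling (-0.70, adjusted p = 0.0398) and without CPX replicate 2 (-0.45, adjusted p = 0.0419).

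Pcbp2, whose protein is the closest to PCBP1 in sequence and also carries iron, moved the other way. It had 65.1 and 64.6 RPM (1011 and 924 reads) with the Pcbp1 hairpin, against 50.7 and 49.2 RPM (719 and 705 reads) with the scrambled hairpin. The replicates of each group lay close together and apart from the other group, with a log2 fold change of 0.27 (SE 0.07, edgeR, adjusted p = 0.0152). This call was lost with DESeq2 (0.26, adjusted p = 0.0947) and in a single limma fit of all 8 libraries (0.37, adjusted p = 0.0568). It was also lost with scrambled replicate 2 left out (0.25) and with Pcbp1 hairpin replicate 2 left out (0.24). The authors' deposited table does not call Pcbp2 with the hairpin (0.265, adjusted p = 0.0823).

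With CPX, Pcbp2 had 679 and 782 RPM, against 512 and 503 RPM with DMSO. The CPX libraries were both higher, but the log2 fold change of 0.52 did not pass (SE 0.19, limma, adjusted p = 0.0673). The authors' deposited table does not call Pcbp2 here either (0.531, adjusted p = 0.178). The rise passed in limma with gene length and GC content taken out (0.68, adjusted p = 0.0306) and in the single limma fit of all 8 libraries (0.52, 0.00732). Of the fits with 1 library left out, it passed only without CPX replicate 1 (0.62). The hairpin and CPX effects on Pcbp2 differed by -0.15 (SE 0.17, limma, adjusted p = 0.491), which does not show that they are alike, and by -0.52 with TMM scaling (adjusted p = 0.0329). Map3k12, whose annotated transcripts share words with Pcbp2, had 6.38 and 5.31 RPM with the Pcbp1 hairpin and 7.34 and 5.87 RPM with the scrambled hairpin. It had 6.25 and 4.73 RPM with CPX and 0.610 and 1.53 RPM with DMSO, a rise (log2 fold change 1.98, limma, adjusted p = 0.0128) at levels far below those of Pcbp2.

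The balance of Pcbp1 and Pcbp2 therefore shifted within each library, where scaling between libraries plays no part. Of the reads of both genes, Pcbp1 held 18.8% (95% Clopper-Pearson interval 16.7 to 21.1) and 19.9% (17.7 to 22.4) in the Pcbp1 hairpin libraries. It held 46.5% (43.8 to 49.2) and 51.2% (48.6 to 53.9) in the scrambled libraries. The intervals of the groups lie far apart; they cover counting error only. In the chelation experiment Pcbp1 held 25.9% and 20.3% with CPX, against 49.7% and 51.6% with DMSO, with no interval because the values are not whole reads. With 2 libraries against 2, the smallest p an exact permutation test can give is 0.333, so none is given for these shares.

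Pcbp3, a family member of low level here, had 1.61 and 1.61 RPM with the Pcbp1 hairpin, against 0.353 and 0.628 RPM with the scrambled hairpin. These are 25 and 23 reads in the hairpin libraries and 5 and 9 reads in the scrambled ones. Both hairpin libraries are higher, but the gene reached the minimum of 1 RPM in 2 libraries through the hairpin group alone, so a gene kept this way had to differ and its test lends no support (log2 fold change 1.59, SE 0.39, edgeR, adjusted p = 0.0104). Without scrambled replicate 1 the adjusted p was 0.0615 (log2 fold change 1.23), and in the authors' deposited table it is 0.115 (log2 fold change 0.903). With CPX Pcbp3 had 2.14 and 3.07 RPM, against 1.93 and 1.48 RPM with DMSO, and did not pass (0.48, SE 0.32, limma, adjusted p = 0.265).

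Pcbp4, described in human cells as a gene induced by p53, had 5.35 and 4.27 RPM (83 and 61 reads) with the Pcbp1 hairpin, against 6.07 and 6.28 RPM (86 and 90 reads) with the scrambled hairpin. The hairpin libraries are both lower, without passing (log2 fold change -0.47, SE 0.19, edgeR, adjusted p = 0.0726). With gene length and GC content taken out it passed (-0.73, adjusted p = 0.0151). With CPX it had 4.38 and 2.29 RPM, against 5.19 and 11.5 RPM with DMSO. The replicates of each group lie far apart there, and the log2 fold change of -1.16 did not pass (SE 0.50, limma, adjusted p = 0.11), although the authors' deposited table calls it (-1.21, adjusted p = 0.0484) and so does the single limma fit of all 8 libraries (adjusted p = 0.0411).

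Hnrnpk, the most abundant of the family in the knockdown experiment, moved in opposite directions in the experiments. It had 495 and 500 RPM with the Pcbp1 hairpin, against 204 and 205 RPM with the scrambled hairpin (7685 and 7151 reads with the Pcbp1 hairpin, 2894 and 2935 with the scrambled hairpin). Replicates were nearly alike, and the level was 2.26-fold higher with the hairpin (log2 fold change 1.18, SE 0.06, edgeR, adjusted p = 1.49e-05). Hnrnpk kept this call, at 1.14 to 1.28, in every alternative run.

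With CPX, Hnrnpk had 632 and 553 RPM, against 994 and 919 RPM with DMSO. Both CPX libraries are lower, 1.62-fold on average (log2 fold change -0.69, SE 0.19, limma, adjusted p = 0.03). This call was lost with TMM scaling (-0.56, adjusted p = 0.1), without DMSO replicate 1 (-0.64, 0.263), without DMSO replicate 2 (-0.75, 0.177) and without CPX replicate 2 (-0.60, 0.051), and the authors' deposited table does not call it (-0.661, adjusted p = 0.0975). The difference between the hairpin and CPX effects on Hnrnpk was 1.97 (SE 0.17, limma over all 8 libraries, adjusted p = 0.000152). It passed in every alternative run, between 1.59 with TMM scaling and 2.07 without CPX replicate 1. The experiments also differ in RNA selection and in transduction, and these cannot be told apart from the perturbation in that difference.

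**Figure D2:**
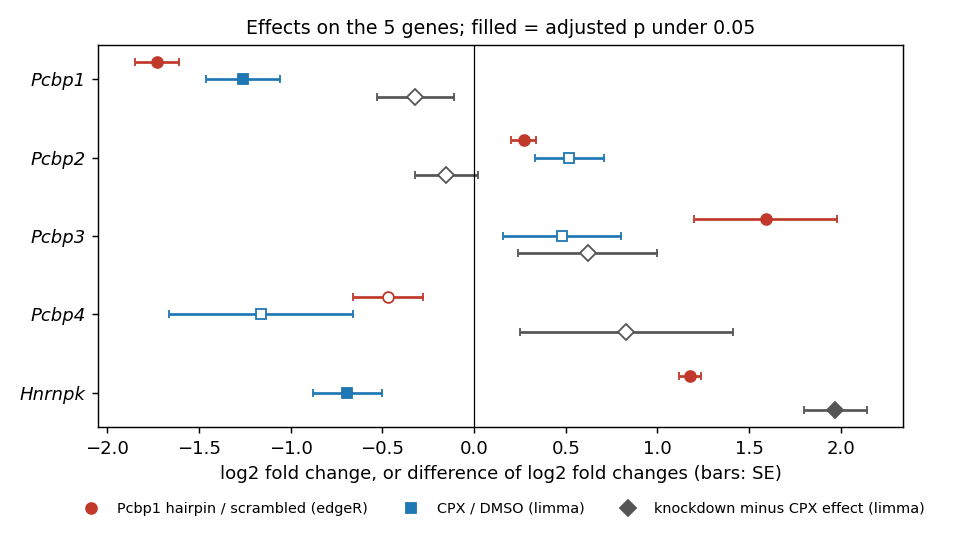
Log2 fold changes of the 5 genes with the Pcbp1 hairpin against the scrambled hairpin (circles, edgeR) and with CPX against DMSO (squares, limma). Diamonds are the difference between the effects in the limma fit over 8 libraries, which estimates the hairpin effect anew without TMM scaling. Bars are standard errors and filled symbols passed at an adjusted p under 0.05. Hnrnpk is at 1.18 with the hairpin and -0.69 with CPX, while Pcbp1 is negative in both.

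The calls in the family are read against those over all genes. With the hairpin, 4 of the 5 genes were called, Pcbp1 lower and Pcbp2, Hnrnpk and, through its hairpin libraries alone, Pcbp3 higher, where 56% of the 11575 tested genes were called (29.3% higher and 26.7% lower). With CPX, 2 of 5 were called, both lower, where 44.7% of 11466 genes were called and 24.8% were called lower. For the difference between effects, 1 of 5 was called, Hnrnpk as higher, where 51.3% of 10430 genes were called and 35.2% were called higher (3671 higher and 1675 lower, but 2851 and 2444 with TMM scaling). The RPM ranges of the groups were apart for all 5 genes in both experiments, as they were for 78.5% of genes in the knockdown and 76.3% in the chelation experiment.

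The pseudogene Gm7964, an intronless copy of Hnrnpk, was read alongside its parent. It had 228 and 243 RPM with the Pcbp1 hairpin, against 90.9 and 85.7 RPM with the scrambled hairpin, a log2 fold change of 1.31 (SE 0.07, edgeR, adjusted p = 1.46e-05). It had 34.3 and 29.0 RPM with CPX, against 47.3 and 44.7 RPM with DMSO (-0.54, SE 0.25, limma, adjusted p = 0.128). Its level therefore followed that of Hnrnpk in direction in both experiments.

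The ratio of the pseudogene to Hnrnpk, taken within each library, was as follows. Gm7964 stood at 46.1% and 48.7% of the Hnrnpk level with the Pcbp1 hairpin and at 44.5% and 41.8% with the scrambled hairpin. It stood at 5.43% and 5.24% of it with CPX and at 4.76% and 4.86% with DMSO. The experiments differ in RNA selection, transduction and treatment, which cannot be told apart here. Whether the counting placed reads of Hnrnpk on Gm7964 was not tested. With the reads of both added, the Hnrnpk log2 fold changes were 1.22 with the hairpin (edgeR) and -0.69 with CPX (limma). The difference between the effects, from the limma fit of all 8 libraries, was 2.01.

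**Figure D3:**
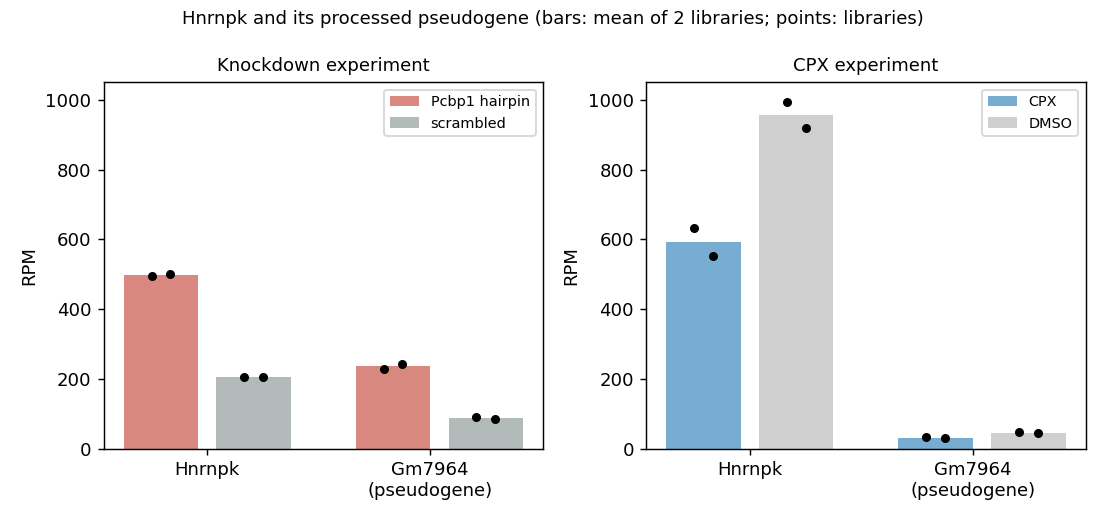
RPM of Hnrnpk and its processed pseudogene Gm7964; bars are means of 2 libraries and points are libraries, in the knockdown experiment (left) and the chelation experiment (right). The pseudogene is at 41.8% to 48.7% of Hnrnpk in the knockdown experiment and at 4.76% to 5.43% in the chelation experiment.

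Set per kilobase of the longest coding transcript, the levels give the make-up of the family. With the Pcbp1 hairpin, Hnrnpk stood at 167 and 168 RPM per kilobase, Pcbp2 at 20.2 and 20.1, Pcbp1 at 8.24 and 8.79, Pcbp4 at 2.63 and 2.10 and Pcbp3 at 0.633 and 0.632. With the scrambled hairpin, Hnrnpk stood at 68.7 and 69.0 RPM per kilobase, Pcbp1 at 24.1 and 28.3, Pcbp2 at 15.7 and 15.3, Pcbp4 at 2.98 and 3.09 and Pcbp3 at 0.139 and 0.247. No neighbours in either order overlapped, and Pcbp1 and Pcbp2 changed places between the hairpins.

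With CPX, Pcbp2 stood at 211 and 243 RPM per kilobase and Hnrnpk at 213 and 186, which overlap, followed by Pcbp1 at 130 and 109, Pcbp4 at 2.15 and 1.12 and Pcbp3 at 0.840 and 1.21, of which the last 2 overlap. With DMSO, Hnrnpk stood at 335 and 310 RPM per kilobase, Pcbp1 at 277 and 294, Pcbp2 at 159 and 156, Pcbp4 at 2.55 and 5.66 and Pcbp3 at 0.760 and 0.583. The order of Hnrnpk and Pcbp1 in both groups rests on the length used. Per kilobase of all annotated exons joined, Pcbp1 averaged 119 and Hnrnpk 91.6 with CPX, and Pcbp1 averaged 285 and Hnrnpk 148 with DMSO.

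Of the family's summed level per kilobase, Pcbp1 held 4.15% and 4.40% with the Pcbp1 hairpin, against 21.5% and 24.4% with the scrambled hairpin. Hnrnpk held 84.0% and 84.2% with the Pcbp1 hairpin, against 61.6% and 59.5% with the scrambled hairpin. With CPX the shift was towards Pcbp2, which held 37.9% and 44.9%, against 20.5% and 20.4% with DMSO. Pcbp1 held 23.3% and 20.1% with CPX, against 35.8% and 38.4% with DMSO. The summed level was 198 and 200 RPM per kilobase with the Pcbp1 hairpin against 112 and 116 with the scrambled hairpin, and 556 and 540 with CPX against 774 and 766 with DMSO, so it was higher with the hairpin and lower with CPX. These shares too rest on the length used. With all annotated exons joined, Pcbp1 held 8.31% and 8.78% with the Pcbp1 hairpin, against 35.9% and 39.8% with the scrambled hairpin, and Hnrnpk held 77.2% and 77.3% with the Pcbp1 hairpin, against 47.2% and 44.6% with the scrambled hairpin. On that length Pcbp1 held 36.1% and 31.4% with CPX, against 52.1% and 54.8% with DMSO, and Pcbp2 held 36.3% and 43.4% with CPX, against 18.5% and 18.1% with DMSO. The direction of each of these shifts was the same with both lengths.

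**Figure D4:**
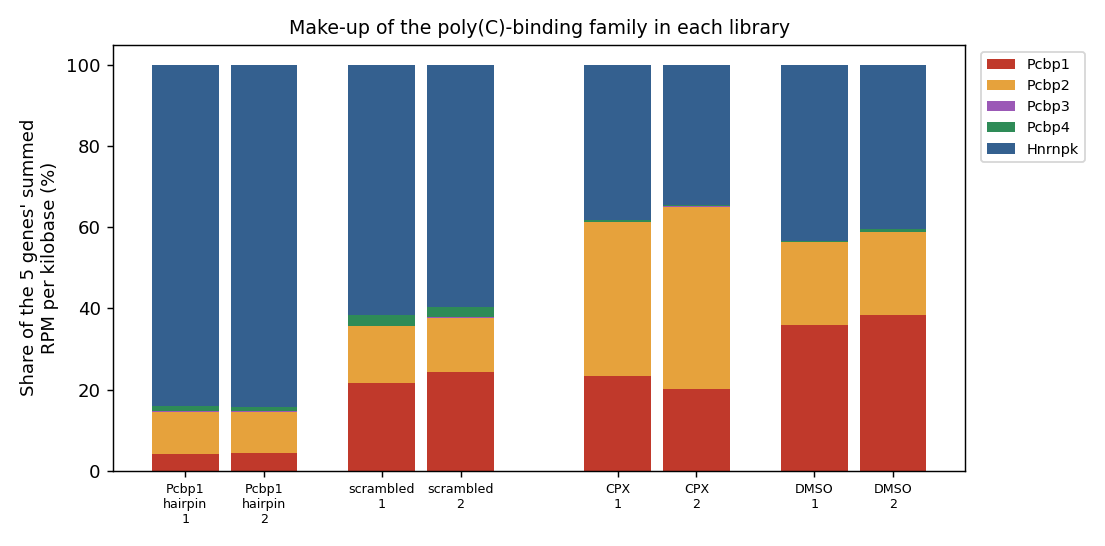
Share of each gene (percent, bars stacked to 100) in the family's summed RPM per kilobase of the longest coding transcript, for each library. Hnrnpk holds 84.0% and 84.2% in the Pcbp1 hairpin libraries, and Pcbp2 holds its largest shares, 37.9% and 44.9%, in the CPX libraries.

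Markers of myeloid cells moved with CPX. Of 7 listed macrophage and monocyte names, Adgre1 and Emr1 stand for the same gene, and 5 were measured. These summed to 3.35 and 4.55 RPM with the Pcbp1 hairpin and 2.19 and 2.37 RPM with the scrambled hairpin. They summed to 67.6 and 46.3 RPM with CPX, against 2.80 and 4.71 RPM with DMSO. Itgam (49.5 and 25.5 RPM with CPX) and Cd68 (14.1 and 15.2 RPM) made up most of this, while Csf1r, a defining marker of macrophages, stood at 0.0521 and 0.052 RPM with CPX and Cd14 at 0.261 and 0.104 RPM. Emr1, another macrophage marker, had 3.75 and 5.46 RPM with CPX, against 0.0509 and 0 RPM with DMSO. Of the dendritic cell markers, 4 of 5 were measured and summed to 22.9 and 26.4 RPM with CPX and 2.95 and 3.27 RPM with DMSO. Among them Itgax had 13.3 and 21.7 RPM with CPX, against 1.17 and 1.28 RPM with DMSO, and Zbtb46 had 8.91 and 4.26 RPM with CPX, against 1.68 and 1.79 RPM with DMSO. The other 2 stayed low: Flt3 had 0.521 and 0.104 RPM with CPX, against 0.102 and 0.153 RPM with DMSO. Xcr1 had 0.104 and 0.364 RPM with CPX, against 0 and 0.0512 RPM with DMSO. In the knockdown experiment the 4 measured dendritic cell markers summed to 13.5 and 11.1 RPM with the Pcbp1 hairpin, against 17.4 and 16.4 RPM with the scrambled hairpin, most of it Xcr1 (8.76 and 6.64 RPM with the Pcbp1 hairpin, 11.6 and 11.3 RPM with the scrambled hairpin). Mpo, a neutrophil enzyme and the only measured marker of 5 listed, stood at 7.19 and 5.35 RPM with CPX and at 0.0509 and 0 RPM with DMSO. For the unmeasured neutrophil markers the authors' mean signals in the chelation experiment were 0 (S100a8 and Elane), 0.992 (S100a9) and 2.45 (Ly6g). That of Lyz2, an unmeasured macrophage marker, was 0.259, and that of Siglech, an unmeasured dendritic cell marker, was 0. Measured markers of B cells (2 of 5), erythroid cells (1 of 6) and fibroblasts or packaging cells (2 of 5) summed to at most 2.70, 0.908 and 4.32 RPM in any library. The B cell markers summed to 2.29 and 2.70 RPM with CPX, against 0.661 and 0.512 RPM with DMSO. The fibroblast markers, all of it Col1a1 there, summed to 4.32 and 3.12 RPM with CPX, against 0.203 and 0.460 RPM with DMSO, so low levels of both were higher with CPX. The part of these cells or genes in the CPX results was not tested.

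Other proteins of the hnRNP class, which package nuclear RNA and steer its splicing, mostly rose with the Pcbp1 hairpin. The 29 listed names include synonyms and stand for 26 genes, all of which were tested. Of these, 18 rose, 4 fell and 4 did not pass, with a median log2 fold change of 0.83 (0.00 over all genes tested). Over all genes 29.3% rose and 26.7% fell. Among the listed genes, Hnrnph3 reached the minimum through the hairpin libraries alone. Hnrnpm, a splicing regulator, had 319 and 323 RPM with the Pcbp1 hairpin, against 55.5 and 57.5 RPM with the scrambled hairpin (log2 fold change 2.40, edgeR, adjusted p = 4.67e-06). Ptbp1, which binds pyrimidine tracts near splice sites, had 341 and 351 RPM with the Pcbp1 hairpin, against 103 and 112 RPM with the scrambled hairpin (1.58, edgeR, adjusted p = 9.93e-06), and Hnrnph2 and Hnrnpab rose by 2.37 and 1.55. Hnrnpk, at 1.18, lies inside the range of the list (-0.61 to 2.40).

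With CPX, 3 of the 26 tested hnRNP genes rose, 10 fell and 13 did not pass, with a median of -0.40 (-0.12 over all genes tested). The share called lies near the 44.7% of all genes called with CPX (19.9% higher and 24.8% lower). Hnrnpr, an hnRNP of mRNA transport and splicing, had 18.1 and 18.8 RPM with CPX, against 197 and 169 RPM with DMSO (-3.28, limma, adjusted p = 0.00241). Hnrnpab had 792 and 781 RPM with CPX, against 2023 and 1941 RPM with DMSO (-1.33, adjusted p = 0.0041), Syncrip fell by 2.62, and Raly rose to 757 and 846 RPM, against 254 and 260 RPM with DMSO (1.64, adjusted p = 0.00309). Without DMSO replicate 1, 7 of the list were called, and without DMSO replicate 2, 6 were. For the difference between the effects, 19 hnRNP genes were called higher and 3 lower (median 1.76, against 0.40 over all genes tested), where 35.2% of all genes were called higher and 16.1% lower, a balance that TMM scaling shifts as given above. Hnrnpk, at 1.97, is close to the middle of that list.

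**Figure D5:**
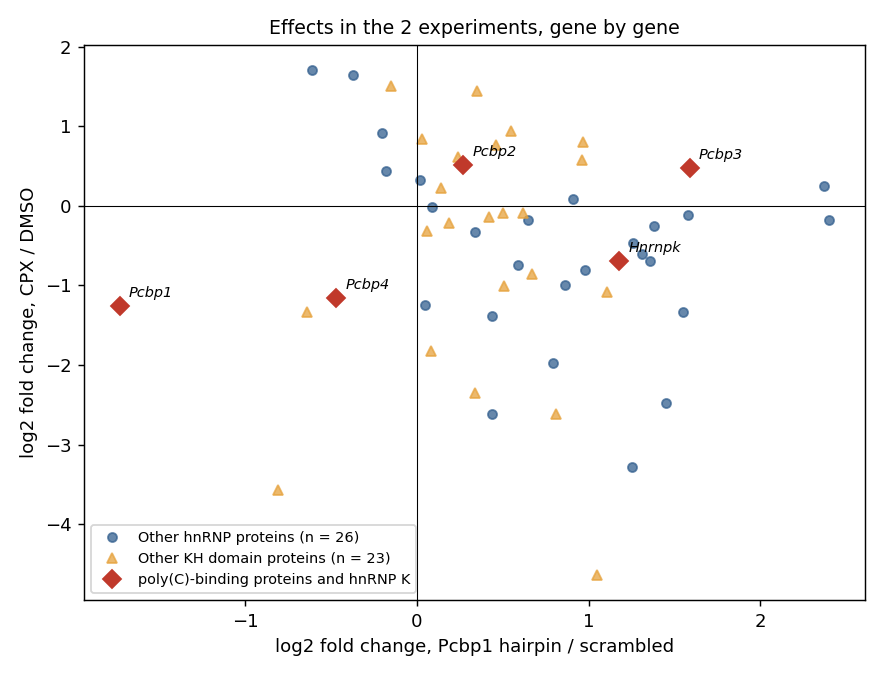
Log2 fold change with the Pcbp1 hairpin against the scrambled hairpin (horizontal) and with CPX against DMSO (vertical) for the 5 genes (red diamonds), 26 other hnRNP genes (circles) and 23 other KH domain genes (triangles). Pcbp1 lies at -1.73 and -1.26, and Hnrnpk, at 1.18 and -0.69, lies among the other hnRNP genes.

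Genes of other proteins with KH domains rose more often than they fell with the Pcbp1 hairpin, and moved in both directions with CPX. With the Pcbp1 hairpin, 23 of 30 listed genes were tested, of which 14 rose, 2 fell and 7 did not pass (median 0.42), where 29.3% of all genes rose and 26.7% fell. Khsrp, whose protein speeds the decay of AU-rich mRNAs, had 98.0 and 102 RPM with the Pcbp1 hairpin, against 40.9 and 44.8 RPM with the scrambled hairpin (1.11, edgeR, adjusted p = 3.36e-05), and Ankrd17 rose by 0.96. Pnpt1, a mitochondrial RNA-degrading enzyme, had 107 and 103 RPM with the Pcbp1 hairpin, against 174 and 168 RPM with the scrambled hairpin (-0.81, adjusted p = 3.72e-05), and Krr1, a ribosome assembly factor, fell by 0.64.

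With CPX, 25 genes of the KH list were tested, of which 9 rose, 7 fell and 9 did not pass (median -0.09), where 19.9% of all genes rose and 24.8% fell. Pnpt1 had 6.51 and 6.08 RPM with CPX, against 92.6 and 69.0 RPM with DMSO (-3.57, limma, adjusted p = 0.00241), and Akap1, an anchoring protein of mitochondria, had 1.62 and 1.09 RPM with CPX, against 34.5 and 59 RPM with DMSO (-4.64, adjusted p = 0.00241). Pno1, another ribosome assembly factor, fell by 2.35, and Igf2bp2, an mRNA-binding protein, rose by 2.98. Igf2bp2 and Nova2 reached the minimum of 1 RPM through the CPX libraries alone and so had to differ. With DMSO replicate 1 left out, and likewise with DMSO replicate 2, 8 genes of this list were called in place of 16. The median of this list was 0.04 with TMM scaling and 0.21 with quantile normalization, so its sign rests on the scaling.

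The iron partners of PCBP1 and PCBP2 (ferritin subunits, prolyl and asparaginyl hydroxylases, and proteins that pass on iron or iron-sulfur clusters) had about as many calls as genes at large. With the Pcbp1 hairpin, of 14 listed genes 12 were tested, of which 3 rose, 4 fell and 5 did not pass (median -0.15), where 56% of all genes were called. Hif1an, the iron-dependent hydroxylase that modifies HIF, had 53.1 and 52.8 RPM with the Pcbp1 hairpin, against 17.6 and 16.1 RPM with the scrambled hairpin (1.54, edgeR, adjusted p = 2.49e-05). Hmox1, the enzyme that frees iron from heme, had 15.0 and 15.3 RPM with the Pcbp1 hairpin, against 4.73 and 4.19 RPM with the scrambled hairpin (1.65, adjusted p = 8.96e-05), while Glrx3, a glutaredoxin that handles iron-sulfur clusters, and Fth1, the ferritin heavy chain, each fell by 0.66. In the single limma fit of all 8 libraries, 3 genes of the list were called in place of 7.

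With CPX, 3 of the 12 tested iron partners rose, 3 fell and 6 did not pass (median -0.15, but 0.18 with quantile normalization, 0.05 without DMSO replicate 2 and 0.33 without CPX replicate 1), where 44.7% of all genes were called. Hmox1 had 1563 and 2313 RPM with CPX, against 33.0 and 24.9 RPM with DMSO (6.03, limma, adjusted p = 0.00241). Ftl1, the ferritin light chain, had 972 and 1449 RPM with CPX, against 338 and 368 RPM with DMSO (1.75, adjusted p = 0.00481). Dohh, the hydroxylase that activates the translation factor eIF5A, had 37.3 and 40.9 RPM with CPX, against 95.9 and 96.0 RPM with DMSO (-1.29, adjusted p = 0.00772). Glrx3 fell here too, to 64.0 and 52.7 RPM with CPX, against 167 and 153 RPM with DMSO (-1.45, adjusted p = 0.00572).

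A further list holds 15 genes described elsewhere as bound by these proteins, as mRNA or as DNA. Of these, 7 were tested with the Pcbp1 hairpin, of which 3 rose and 2 fell, where 56% of all genes were called (median 0.33, but 0.09 with gene length and GC content taken out). Myc, a growth regulator whose transcript and gene are bound by hnRNP K, had 781 and 917 RPM with the Pcbp1 hairpin, against 364 and 449 RPM with the scrambled hairpin (0.96, edgeR, adjusted p = 0.000467). Eif4e, the cap-binding translation factor, had 273 and 275 RPM with the Pcbp1 hairpin and 208 and 196 RPM with the scrambled hairpin (0.33, adjusted p = 0.00292). Ptp4a3 rose by 0.52, and Oprm1, at 1.89 to 4.19 RPM, fell by 0.94. With DESeq2, 3 genes of the list were called in place of 5. The count was also 3 when scrambled replicate 2 or Pcbp1 hairpin replicate 2 was left out, and 2 in the single limma fit.

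With CPX, 9 of these 15 genes were tested, of which 4 rose and 4 fell, where 19.9% of all genes rose and 24.8% fell. With either DMSO library left out, 2 fell. Myc had 56.9 and 45.0 RPM with CPX, against 1552 and 1263 RPM with DMSO (-4.78, limma, adjusted p = 0.00241). Eif4e had 119 and 136 RPM with CPX, against 321 and 309 RPM with DMSO (-1.30, adjusted p = 0.00549). Src, a tyrosine kinase, and Col1a1, a collagen chain, rose by 3.63 and 2.35. Src had 22.7 and 20.9 RPM with CPX, against 1.32 and 1.28 RPM with DMSO, and Col1a1 had 4.32 and 3.12 RPM with CPX, against 0.203 and 0.460 RPM with DMSO. Col1a1 and Cebpa reached the minimum of 1 RPM through the CPX libraries alone and so had to differ. The list median was 1.87 with all libraries but -1.11 without CPX replicate 1 and -0.90 without CPX replicate 2, where 7 of the genes were tested.

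The genes whose profiles over the 8 libraries lay closest to each family member were found among 8112 genes, by the root mean square difference of log2 values centred within each experiment. For Hnrnpk they were Sf3b2 (0.06), a splicing factor subunit, Ints8 (0.07) and Top1 (0.07). For Pcbp1 the nearest were Dhrs11 (0.23), Cox7b (0.23) and AI662270 (0.25), at a greater distance. Pcbp2 had Elf1 (0.04), Agtrap (0.05) and Slc25a3 (0.05), Pcbp3 had Ets2 (0.06), Jmy (0.08) and Rnf44 (0.09), and Pcbp4 had Neu1 (0.14), Tmem120b (0.14) and Melk (0.17). The libraries of a group share their treatment, so such likeness is a description of these libraries.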

How the data were processed

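RNA was sequenced from 8 libraries of mouse Th1 cells. Build mm9 and the tools cutadapt, STAR, HTSeq and DESeq stand in the submitters' processing notes, without versions. The deposited per-library table is named for RPM but holds other units. The knockdown columns are raw counts, since 1 size factor per library turns the deposited counts into the authors' means (relative tolerance 2e-09). The deposited chelation columns behave as a score: counts rescaled and rounded. Each library had its own fitted factor there, so whether 1 common factor was used was not tested. The authors' result tables hold, per the file headers, a mean signal, log2 fold changes, a Wald score and p-values.

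After a constant line in the per-library table (labelled Ins1, value 23487630), 7702 of 7706 matched lines hold another gene's values, so each line was assigned by the authors' means in both tables: 16024 lines matched 1 gene, 11421 matched more than 1 and were not used, and 0 matched none. Without this step the label Pcbp2 would give the values of Pcbp1.

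RPM was computed without the constant line. Genes with at least 1 RPM in 2 of 4 libraries were tested, with edgeR 4.0.16 (quasi-likelihood, TMM) for the knockdown and limma 3.58.1 (trend) on log2(RPM + 0.5) for CPX and for the difference, in R 4.3.3, with Benjamini-Hochberg adjustment over all genes and calls under 0.05. The knockdown SE is |log2 fold change| divided by the root of edgeR's F. The steps were also run on simulated data with far fewer changed genes than were called here, and no result rests on that run. The 2 replicate numbers per group were not taken to pair samples. Named genes are the 5 family members, the 3 nearest profiles to each, up to 4 called genes of smallest p per list and experiment, and markers above 5 RPM. The family, the lists and the tests were chosen with earlier results of these data known. Alternatives were DESeq2 1.42.0, other scalings, filters and pseudocounts, a block, leaving out each library and, chosen after seeing the data, 1 limma fit of 8 libraries, length and GC content taken out, pseudogene reads added and joined exons as length.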

Additional observations from a re-analysis of the deposited data

How the results depend on the processing

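With 2 libraries per group, leaving out 1 decides several calls, and the lone library left is assumed to vary like the other group. Leaving out 1 library gave 5518 to 5775 called genes for the knockdown (6482 with all) and 2535 to 5512 for CPX (5124 with all), with the lowest counts, 2535 and 2785, without DMSO replicates 1 and 2. One limma fit of all 8 libraries called 2617 genes in the knockdown. Over the same omissions the log2 values ran between 0.24 and 0.28 for Pcbp2 and between 1.23 and 2.06 for Pcbp3 in the knockdown, between 0.42 and 0.62 for Pcbp2 between -0.79 and -0.60 for Hnrnpk, between -1.70 (without DMSO replicate 1) and -0.63 (without DMSO replicate 2) for Pcbp4 and between 0.26 and 0.70 for Pcbp3 with CPX, and between -0.45 and -0.20 for the Pcbp1 difference. Pcbp3 could not be tested without either Pcbp1 hairpin library or with a filter of 5 RPM. Other changed calls were Pcbp2 in the knockdown, lost with DESeq2 (0.26) and in the single limma fit (0.37), Hnrnpk with CPX, lost with TMM scaling (-0.56), and Pcbp4 in the knockdown, gained with length and GC content taken out (-0.73). With CPX, Pcbp2 was gained with length and GC content taken out (0.68) and in the single fit (0.52), and Pcbp4 in the single fit (-1.16). With TMM scaling the Pcbp1 and Pcbp2 differences were gained (-0.70 and -0.52). The cause was not tested.

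Scaling moves the centre: the median log2 change of all genes was 0.11 with library totals in the knockdown, -0.12 with CPX (0.00 with TMM) and 0.40 for the difference (0.04 with TMM). A replicate block called 7348 genes in the knockdown, 5651 with CPX and 5362 for the difference, and Pcbp4 in the knockdown (-0.47, adjusted p = 0.0433). Same-numbered libraries deviated together at 0.289 in the knockdown and 0.101 with CPX, and Cd8a and Cd8b1 followed the number in the hairpin groups, but the labels tie the numbers to no shared animal, culture or day. Over all tested genes, a smooth fit on gene length and GC content took up 18.7% of the variance of the knockdown log2 fold changes. With CPX it took up 1.29%. DESeq2 gave no adjusted p for Pcbp3. Pcbp3, at 5 to 25 reads, is limited by depth.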
